A study of Mus musculus with 6 samples.

Results

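Folr2, Lyve1, Stab1, Cbr2, Mrc1, Cd163, Timd4, F13a1, Gas6 and Selenop are genes used to recognize tissue-resident macrophages of the FOLR2/LYVE1 type, and their RNA was examined in bulk MCA205 tumors from mice given FF-10101. The 10 genes were taken by name from the deposited table of 54309 gene identifiers, and each symbol matched 1 identifier. They were selected on the levels measured in these same 6 tumors as well as on their known role, so the difference between the groups is given for them as a description without a test. MCA205 is a transplantable mouse fibrosarcoma line, and 1000000 cells had been injected under the skin of the right flank of female C57BL/6J mice that were 7 weeks old. The Control group (n = 3 tumors) received milliQ water from day 1 to day 8. The FF-10101 group (n = 3 tumors) received FF-10101, an inhibitor of the receptor tyrosine kinases CSF1R and FLT3, at 0.1 mg/mL in the drinking water over the same days, and all 6 tumors were collected on day 8. Both groups carried the same graft, and no allele or other agent is named for either. Because 1 tumor line was grown at 1 site and sampled on 1 day, the values describe that setting alone.

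Macrophages that settle in tissues are often divided by markers into cells that recently arrived as monocytes and longer-lived resident cells. The resident cells near blood vessels in many organs carry the folate receptor FOLR2, the hyaluronan receptor LYVE1 and the scavenger receptor STAB1, take up waste from the tissue fluid, and bind apoptotic cells directly or through bridging proteins such as GAS6. CSF1R is the receptor that most macrophages need for survival. MRC1 and CD163 are endocytic receptors for mannose-bearing glycoproteins and for haptoglobin-hemoglobin complexes. Position around vessels was not measured here, since the RNA came from whole tumors, and in bulk RNA fewer cells of a type and less RNA per cell cannot be told apart.

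The libraries held 9143806 to 13258258 reads assigned to genes, and 18467 to 19440 genes had a read. Levels are given as normalized counts, that is, reads divided by the size factor of each tumor. A total of 3 reads, taken here as the detection floor, was worth 2.29 to 3.38 normalized counts. Control 1, Control 3 and each of the FF-10101 tumors stood apart from the others of their group in a marker list. Control 1 had the highest summed level of 12 pan-macrophage markers (121358, against 75016 and 93516 in the other controls) and of 10 blood endothelial markers (7266, against 2920 and 2406). Control 3 had the highest summed level of keratinocyte markers among the controls (216, against 39.4 and 42.4). FF-10101 1 had the highest summed level of 8 keratinocyte markers (1026, against 22.2 to 216 in the other tumors), FF-10101 2 that of 8 skeletal muscle markers (9494, against 2694 to 5868), and FF-10101 3 that of 6 mast cell markers (1649, against 266 to 646). In limma on log2(normalized count + 1) with Benjamini-Hochberg adjustment, 2 of 13963 genes tested were lower in FF-10101 at an adjusted p under 0.05 (0.0143%) and 4 were higher (0.0286%). Without Control 1 these were 1379 (9.88%) and 1672 (12%). An unadjusted p under 0.05 was reached by 1046 genes in the lower direction (7.49%) and by 1224 in the higher direction (8.77%). The p-values measure the spread between these tumors, which the study describes as biological replicates.

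The sequences before the start sites of 3 members are shown because the members with the lowest treated-to-control ratios were Cbr2, Folr2 and Stab1. They are the 250 bases before each annotated start in RefSeq (GRCm38.p6), written 5′ to 3′ along the transcribed strand, which is the minus strand in each case. The RefSeq promoter table held 13 starts for 9 of the 10 members. Folr2 had 2 starts (chr7:101857191-101857440 and chr7:101845332-101845581), and both are given because values per gene do not show which was used. The Cbr2 stretch is chr11:120732022-120732271 and the Stab1 stretch is chr14:31168642-31168891. Capitals mark matches on either strand to GAGGAA, a core of sites bound by the macrophage factor PU.1, or to TGCTGA, a short site of MAF factors.
Folr2 upstream start: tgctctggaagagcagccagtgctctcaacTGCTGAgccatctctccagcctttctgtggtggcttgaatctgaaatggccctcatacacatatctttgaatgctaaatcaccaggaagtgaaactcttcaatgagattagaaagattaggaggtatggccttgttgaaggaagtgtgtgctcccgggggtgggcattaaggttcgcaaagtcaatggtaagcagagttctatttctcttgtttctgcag
Folr2 downstream start: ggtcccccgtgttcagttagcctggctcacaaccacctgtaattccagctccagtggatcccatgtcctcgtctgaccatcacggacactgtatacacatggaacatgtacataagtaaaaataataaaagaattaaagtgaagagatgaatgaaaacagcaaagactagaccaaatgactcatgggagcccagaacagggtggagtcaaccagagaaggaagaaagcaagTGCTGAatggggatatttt
Cbr2: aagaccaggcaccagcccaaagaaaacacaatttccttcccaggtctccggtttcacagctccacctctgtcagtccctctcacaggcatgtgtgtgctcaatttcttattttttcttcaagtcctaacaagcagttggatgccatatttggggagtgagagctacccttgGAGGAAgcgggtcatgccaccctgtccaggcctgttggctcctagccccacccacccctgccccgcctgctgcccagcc
Stab1: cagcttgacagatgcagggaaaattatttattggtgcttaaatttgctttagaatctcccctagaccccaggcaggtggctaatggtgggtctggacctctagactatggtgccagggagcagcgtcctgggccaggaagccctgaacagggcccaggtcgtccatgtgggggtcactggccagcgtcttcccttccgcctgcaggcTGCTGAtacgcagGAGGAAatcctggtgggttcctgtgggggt

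In the window searched, 250 bases before to 50 after a start, TGCTGA began at -220 and -19 relative to the 2 Folr2 starts. In Stab1, TGCTGA began at -43 and GAGGAA at -30. In Cbr2, GAGGAA began at -79, and a reverse TGCTGA at 42 lay after the start and outside the stretch printed. Mrc1 held 3 reverse matches to GAGGAA, F13a1 and Selenop also held GAGGAA, Timd4 held 2 reverse matches to TGCTGA, and the Cd163 and Gas6 windows held neither. GAGGAA was present at 7 of the 13 member starts, belonging to 5 of the 9 members, and at 28.3% of 32851 promoters in the table. Of these starts, 2 were of Selenop, whose windows overlap and hold the same match. TGCTGA was present at 5 of the 13, belonging to 4 of the 9 members, and at 19.5% of all promoters. The 2 motifs share no overlapping letters in these stretches. These matches are letters in a window, and binding was not measured.

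Among the scavenger and endocytic receptors, Folr2, Stab1 and Mrc1 were lower in every FF-10101 tumor than in any control. Folr2 (ENSMUSG00000032725), which binds folate at the cell surface, stood at 707, 640 and 615 normalized counts in Control 1 to 3 and at 70.3, 106 and 239 in FF-10101 1 to 3. The controls lay within 1.15-fold of each other, the treated tumors spread over 3.40-fold, and the groups did not overlap. The treated mean was 139 ± 88.9 (SD, n = 3) against 654 ± 47.7 (SD, n = 3), or 21.2% of control, and the log2 fold change was -2.42 with a standard error of 0.40. Exons of Gm10602 on the opposite strand overlap those of Folr2, and reads of the 2 genes cannot be told apart without strand. Gm10602 was given at most 8.87 normalized counts in any tumor. The part of such reads in the Folr2 values was not tested.

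Stab1 (ENSMUSG00000042286), whose product clears modified proteins and apoptotic cells, had normalized counts of 3243, 3433 and 2314 in the controls. The FF-10101 tumors had 1236, 929 and 916, so all 3 were below the lowest control and close to each other (1.35-fold). The treated mean was 1027 ± 181 (SD, n = 3) against 2997 ± 599 (SD, n = 3), and the log2 fold change was -1.54 with a standard error of 0.20, the smallest among the members. Leaving out any 1 tumor gave Stab1 differences of -1.71 to -1.43. Exons of Nt5dc2 on the opposite strand overlap 1.09% of the Stab1 exon bases, and Nt5dc2 was also lower in every FF-10101 tumor (649, 562 and 457) than in any control (709, 1103 and 1092). The part of such reads in the Stab1 values was not tested.

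Mrc1 (ENSMUSG00000026712), which encodes the mannose receptor CD206, was the second most abundant member by count, at 3658, 4742 and 2861 in the controls and 1104, 1296 and 2105 in the FF-10101 tumors. The groups did not overlap, and FF-10101 3 was the highest treated tumor. The treated mean was 40.0% of control (1502 ± 531 against 3754 ± 944, SD, n = 3 each). The difference on the log2 scale was -1.35 with a standard error of 0.28.

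Cd163 (ENSMUSG00000008845), the hemoglobin scavenger receptor, differed from those 3 receptors in that its groups overlapped. It stood at 324, 337 and 110 normalized counts in the controls and at 44.3, 66.2 and 557 in the FF-10101 tumors. FF-10101 1 and 2 were lower than every control, whereas FF-10101 3 was the highest of the 6 tumors, 12.6-fold above the lowest treated tumor. The log2 fold change was -0.95 with a standard error of 0.90, -2.06 without FF-10101 3 and -0.25 without FF-10101 1. The value for the treated group therefore depended on a single tumor in either direction.

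Lyve1 (ENSMUSG00000030787), the hyaluronan receptor that gives these macrophages part of their name, was low and did not separate the groups. Control 1 had 104 normalized counts, Control 2 had 33.7 and Control 3 had 35.5, while FF-10101 1 to 3 had 26.0, 48.9 and 63.1. Control 1 was the highest tumor and FF-10101 1 the lowest, with the other 4 in between. The log2 fold change was -0.21 with a standard error of 0.52, and it was 0.31 without Control 1 and 0.15 without FF-10101 1. At 31 to 92 reads per tumor, Lyve1 had fewer reads than Folr2 in the controls (554 to 628 reads).

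LYVE1 is also a marker of lymphatic endothelium, so the genes of that cell type were read in the same tumors. All 8 lymphatic endothelial markers had higher means on the log2 scale in FF-10101, with a median difference of 2.12 against 0.02 over all genes tested, and 3 of the 8 did not overlap between groups. Their summed level was 917 to 985 in the controls and 1038 to 2233 in the FF-10101 tumors. Prox1, the defining transcription factor, had 3, 0 and 5 reads in the controls and 68, 21 and 11 in the FF-10101 tumors (log2 fold change 2.96, standard error 0.92, limma adjusted p = 0.233). Flt4 stood at 109, 30.4 and 35.5 normalized counts in the controls and at 242, 205 and 107 in the FF-10101 tumors. Pdpn and Tbx1, in contrast, differed by 0.04 and 0.07 on the log2 scale. The sign turned for Pdpn without Control 1 (-0.03). For Tbx1 it turned without Control 2 (-0.40), without FF-10101 1 (-0.67) and without FF-10101 2 (-0.10). Among the treated tumors 6 of the 8 markers were highest in FF-10101 1 and lowest in FF-10101 3, the opposite of the order of Lyve1, while Pdpn (823, 791 and 834) and Sema3d (26.0, 22.8 and 34.7) were highest in FF-10101 3. None of the 8 had an adjusted p under 0.05 in limma, 5 had an unadjusted p under 0.05, and none was called by limma-voom. Without Control 1, 4 of the 8 had an adjusted p under 0.05 in limma, all higher, among them Prox1 (0.0491) and Flt4 (0.00466). How much of the Lyve1 RNA came from lymphatic vessels was not tested.

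**Figure D1:**
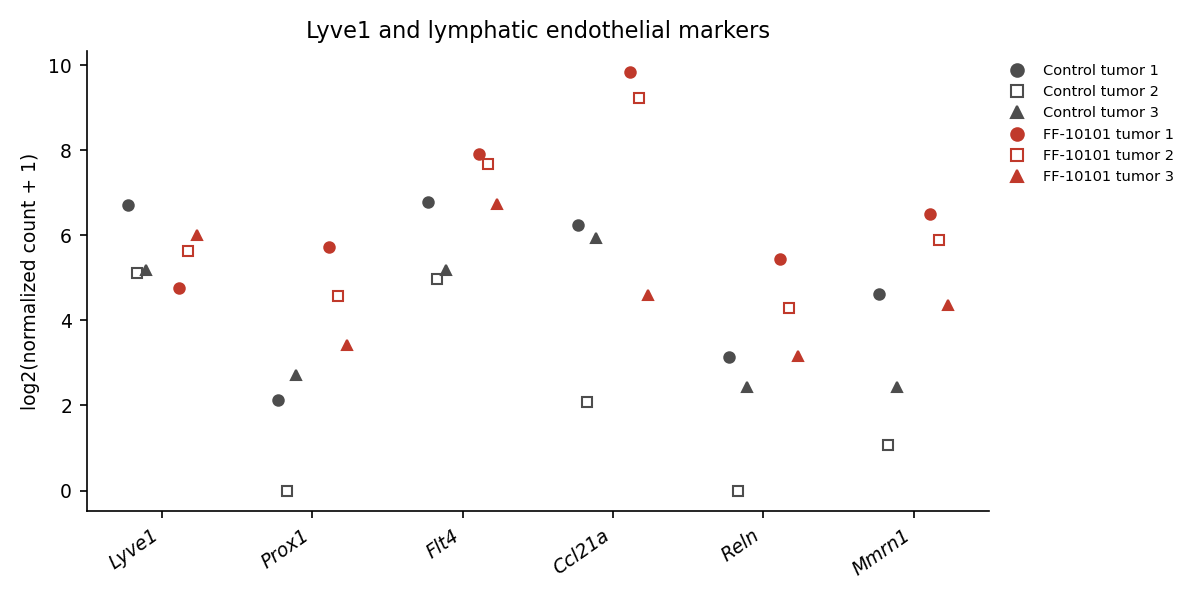
Levels as log2(normalized count + 1) of Lyve1 and of 5 lymphatic endothelial genes, 1 point per tumor (grey, Control; red, FF-10101). Lyve1 overlapped between groups, while Prox1 had 0 to 5 reads in the controls and 11 to 68 in the FF-10101 tumors. Of the 8 markers listed, Pdpn, Sema3d and Tbx1 are not shown, and Pdpn and Tbx1 differed least (0.04 and 0.07).

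Timd4 (ENSMUSG00000055546), a phosphatidylserine receptor of long-lived resident macrophages, was close to the limit of the counting. It had 18, 3 and 14 reads in Control 1 to 3 and 22, 13 and 15 in FF-10101 1 to 3, or 13.02 ± 8.77 against 14.7 ± 1.82 normalized counts (SD, n = 3 each). Per tumor these were 20.3, 3.26 and 15.5 in the controls and 16.802, 14.1 and 13.3 in the FF-10101 tumors. On that scale Control 2 was the lowest tumor and the treated tumors all lay between it and Control 1. The log2 fold change was 0.45 with a standard error of 0.67, and it was -0.26 without Control 2. The groups overlapped, and the spread between the controls exceeded the difference between the means.

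The largest difference of the 10 members was that of Cbr2 (ENSMUSG00000025150), a carbonyl reductase gene expressed in some resident macrophages. It had 635, 1110 and 1110 normalized counts in the controls and 112, 109 and 269 in the FF-10101 tumors. The highest treated tumor, FF-10101 3, was below the lowest control, Control 1. The treated mean was 17.1% of control (163 ± 92.0 against 952 ± 274, SD, n = 3 each). On the log2 scale the difference was -2.63 with a standard error of 0.39, and -3.05 without FF-10101 3.

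F13a1 (ENSMUSG00000039109), the gene of the coagulation factor XIII A chain, a transglutaminase made by macrophages, was also separated between groups. The controls had 1129, 983 and 1139 normalized counts and the FF-10101 tumors had 254, 345 and 737. As with Folr2, the controls were close together (1.16-fold) and the treated tumors were spread (2.91-fold), with FF-10101 3 nearest to the controls. The log2 fold change was -1.43 with a standard error of 0.35, and the treated mean was 41.1% of control.

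The secreted products Gas6 and Selenop overlapped between groups. Gas6 (ENSMUSG00000031451) encodes the ligand that bridges phosphatidylserine on dying cells to the receptors AXL, MERTK and TYRO3. It stood at 880, 845 and 816 normalized counts in the controls, a spread of 1.08-fold, and at 164, 655 and 910 in the FF-10101 tumors. FF-10101 1 and 2 were lower than every control, and FF-10101 3 was higher than every control. The log2 fold change was -0.88 with a standard error of 0.55, and -0.13 without FF-10101 1 and -1.37 without FF-10101 3.

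Selenop (ENSMUSG00000064373), which encodes a plasma selenium carrier, was the most abundant member, at 10309, 8477 and 7014 normalized counts in the controls and 3247, 6302 and 7836 in the FF-10101 tumors. FF-10101 3 exceeded Control 3, while FF-10101 1 and 2 were below all controls. The log2 fold change was -0.64 with a standard error of 0.33, -0.27 without FF-10101 1 and -0.91 without FF-10101 3.

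**Figure D2:**
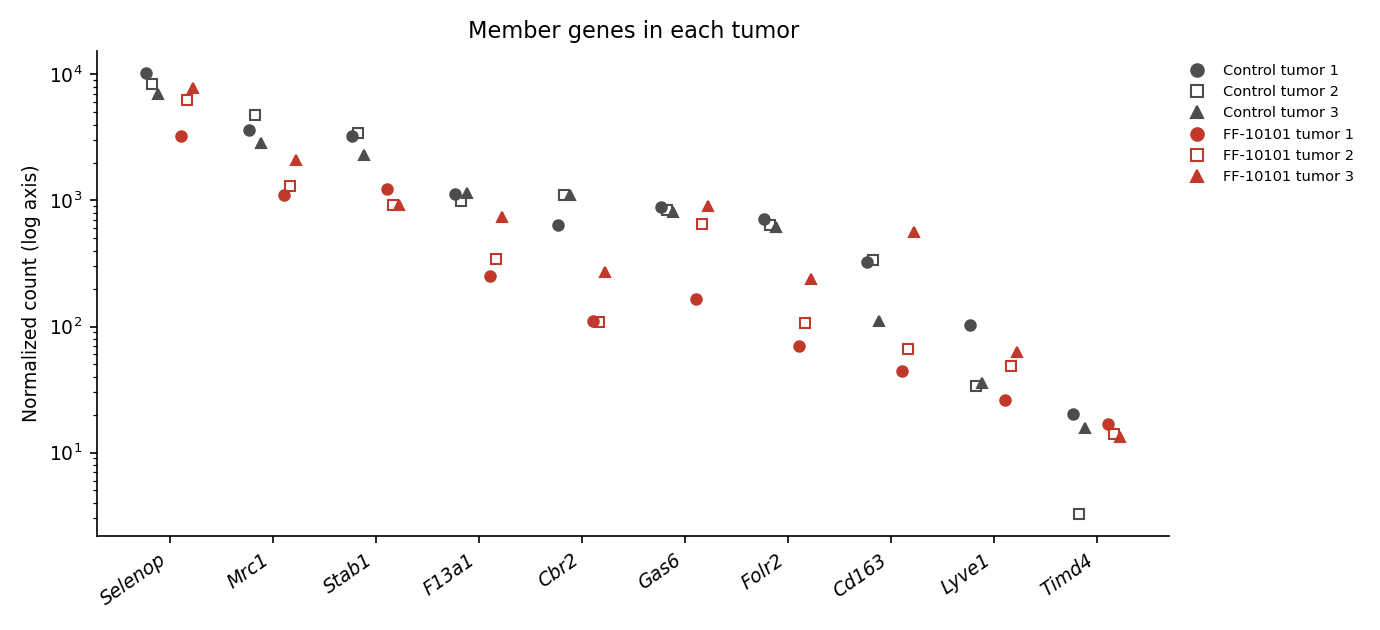
Normalized counts of the 10 members in each of the 6 tumors on a log axis, ordered by the control mean (grey, Control; red, FF-10101). Folr2, Stab1, Cbr2, Mrc1 and F13a1 were lower in all 3 FF-10101 tumors than in any control, whereas the groups overlapped for the other 5.

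Together, 9 of 10 members had a lower mean on the log2 scale in FF-10101, and 5 of 10 had treated tumors all below the controls, against 9.37% of all 13963 genes tested in that direction. No member had treated tumors all above the controls, against 10.9% of genes tested. Since the members were chosen from this contrast, these counts describe them and nothing is read from them. The median log2 fold change of the members was -1.15 and that of all genes tested was 0.02. The members' median was -0.69 without FF-10101 1 and -1.54 without FF-10101 3. The number of members without overlap was 5 without Control 1, 5 without FF-10101 1, 6 without Control 3 and 8 without FF-10101 3, in which case Cd163, Gas6 and Selenop were added.

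**Figure D3:**
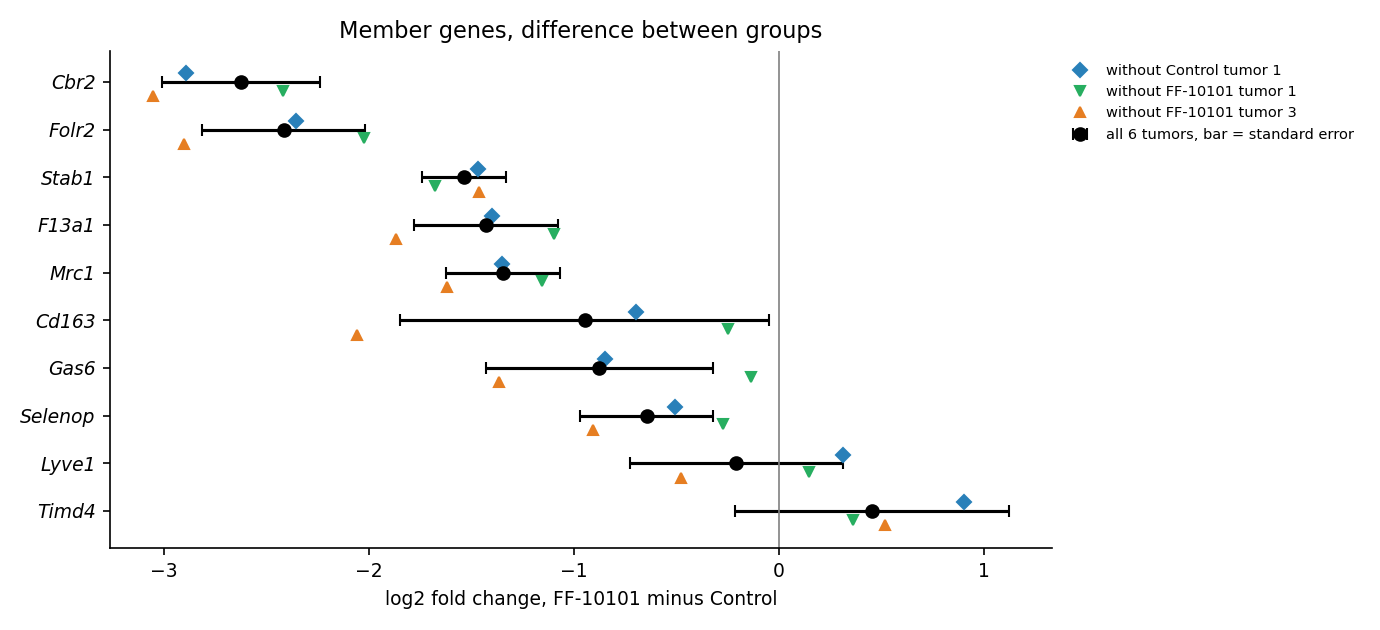
Log2 fold change of each member, FF-10101 minus Control (black, all 6 tumors with the standard error; colored symbols, 1 tumor left out). The values ran from -2.63 for Cbr2 to 0.45 for Timd4, and those of Cd163 and Gas6 moved most when FF-10101 1 or FF-10101 3 was left out.

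The treated tumors shared an order across the members. FF-10101 3 was the highest treated tumor for 8 of 10 members, against 35.3% of all genes tested, and FF-10101 1 was the lowest for 7 of 10, against 41.7%. The exceptions to the first were Stab1 and Timd4, for which FF-10101 1 was highest. The order was not particular to the members. The 2 counts were 5 and 5 of 5 tested adipocyte markers, 7 and 8 of 8 T cell markers and 7 and 7 of 10 fibroblast markers. They were 2 and 0 of 8 lymphatic endothelial markers and 0 and 0 of 4 tested keratinocyte markers. The summed level of the 10 members was 16030 to 21009 normalized counts in the controls and 6274, 9872 and 13646 in FF-10101 1 to 3. FF-10101 1 also had the lowest summed level of pan-macrophage markers (43091, against 66950 and 67057 in the other treated tumors) and the highest level of keratinocyte markers. The part of these differences in the order of the members was not tested.

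Across the 6 tumors, Folr2 moved most like F13a1 (Pearson r = 0.98), Cbr2 (0.96) and Mrc1 (0.96), and Gas6 most like Selenop (0.95). Lyve1 correlated with Selenop at 0.72 and with Stab1 at 0.12, and Timd4 had a negative r with all members but Lyve1 (0.38). These values are descriptions over 6 tumors that include the difference between groups. Of the genes outside the list, the 5 whose pattern was most like the mean standardized level of Folr2, Lyve1 and Stab1 were Itgam (r = 0.99), Dgkz (0.98), Siglec1 (0.98), Map2k1 (0.98) and Tmem171 (0.98). Itgam is also 1 of the 12 pan-macrophage markers. An r over 0.9 with that mean was found for 1.05% of genes tested. Folr2, Lyve1 and Stab1 themselves had r values of 0.93, 0.63 and 0.82 with it, so the mean did not follow all 3 closely.

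Levels between genes were compared as normalized counts per kilobase of exon. In the controls the order was Selenop (3026 ± 581, SD, n = 3), Cbr2 (717 ± 207), Mrc1 (589 ± 148), Folr2 (423 ± 30.9), Gas6 (333 ± 12.5), Stab1 (291 ± 58.2), F13a1 (161 ± 12.9), Cd163 (47.1 ± 23.4), Lyve1 (19.7 ± 13.6) and Timd4 (5.99 ± 4.04). The SDs overlapped for the neighbors Cbr2 with Mrc1, Mrc1 with Folr2, Gas6 with Stab1, Cd163 with Lyve1, and Lyve1 with Timd4. The genes were measured in the same tumors, so these SDs cannot decide whether neighbors differed within a tumor, which was not tested. In the FF-10101 tumors Selenop remained first (2039 ± 822), and Mrc1 (236 ± 83.4) and Gas6 (226 ± 149) came next. Cbr2 (123 ± 69.3), Stab1 (99.8 ± 17.6), Folr2 (89.6 ± 57.5) and F13a1 (66.1 ± 38.1) followed. From Mrc1 to F13a1, the SDs of all neighbors overlapped. F13a1, Cd163, Lyve1 and Timd4 held the last 4 places in both groups.

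Whether the members differed more than macrophage RNA as a whole was examined against 12 pan-macrophage markers. Of these, 11 had a lower mean in FF-10101 and 6 did not overlap between groups, with a median log2 fold change of -0.51. None had an adjusted p under 0.05 in limma, 6 had an unadjusted p under 0.05 and none was called by limma-voom. The median was -0.33 without FF-10101 1. Without Control 1 it was -0.28, and Adgre1 (adjusted p = 0.0309 in limma) and C1qc (0.0422) were called lower and Lgals3 (0.03) higher. With all 6 tumors, Adgre1, which encodes F4/80, had a log2 fold change of -0.95 (standard error 0.22, limma adjusted p = 0.229), while Csf1r itself had -0.25 (standard error 0.35, limma adjusted p = 0.735) and Cd68 had -0.13. Without Control 1 both were positive, Csf1r at 0.14 and Cd68 at 0.28, and Cd68 was also positive without FF-10101 1 (0.15). The mean log2 level of the 12 markers was 12.65, 11.79 and 11.84 in the controls and 11.26, 11.79 and 11.83 in the FF-10101 tumors, so that 2 treated tumors stood level with 2 controls.

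Relative to that mean in the same tumor, Cbr2 and Folr2 were lower in every FF-10101 tumor than in any control, and the other 8 members overlapped between groups. On this scale 53 of 13963 genes tested were without overlap in the lower direction (0.38%) and 4836 in the higher direction (34.6%). As the members were chosen from this contrast, nothing is read from their count. Cbr2 stood at -3.34, -1.67 and -1.72 in the controls and at -4.44, -5.01 and -3.75 in the FF-10101 tumors, a difference of -2.16 on the log2 scale. Folr2 stood at -3.18, -2.47 and -2.57 in the controls and at -5.10, -5.04 and -3.92 in the FF-10101 tumors, a difference of -1.95. The differences of Stab1 (-1.07), F13a1 (-0.96) and Mrc1 (-0.88) kept the sign they had before, but their groups overlapped, and Stab1 in FF-10101 1 (-0.99) reached the level of Control 1 (-0.99). Selenop differed by -0.18, Gas6 by -0.41 and Cd163 by -0.48, whereas Lyve1 (0.26) and Timd4 (0.92) were higher relative to the markers. The median over the 10 members was -0.68.

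**Figure D4:**
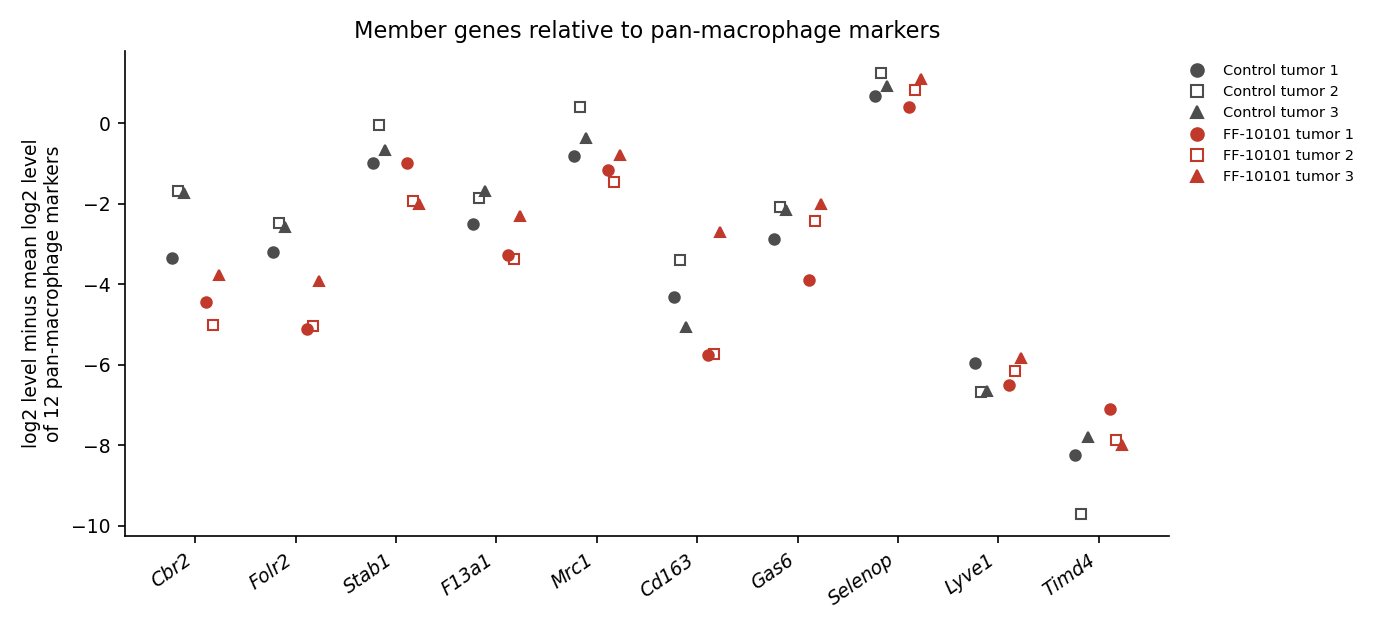
Log2 level of each member minus the mean log2 level of 12 pan-macrophage markers in the same tumor, 1 point per tumor (grey, Control; red, FF-10101), ordered by the difference between groups. Cbr2 and Folr2 were lower in every FF-10101 tumor, and Selenop, Lyve1 and Timd4 overlapped.

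The other 20 genes listed for resident macrophages were read next, and 18 of them passed the minimum of 10 normalized counts. Of the 18, 14 had a lower mean in FF-10101 and 11 did not overlap in that direction, while 1 (Colec12, a scavenger receptor also found on stromal cells) did not overlap in the higher direction. The median log2 fold change was -0.96. None had an adjusted p under 0.05 in limma, 11 lower and 2 higher genes had an unadjusted p under 0.05, and limma-voom on the recovered reads called none. Without Control 1, 7 lower genes and 1 higher gene had an adjusted p under 0.05. FF-10101 3 was the highest treated tumor for 14 of the 18 and FF-10101 1 the lowest for 15, the order also seen for most members.

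The 3 largest differences without overlap in that list were in 2 C-type lectin genes of the Cd209 cluster and a ficolin gene. Cd209g stood at 56.3, 81.5 and 118 normalized counts in the controls and at 2.29, 17.4 and 30.2 in the FF-10101 tumors (log2 fold change -2.74, standard error 0.79, limma adjusted p = 0.229). Its FF-10101 1 value is 3 reads, the detection floor used here. Fcna, which encodes a secreted lectin of the complement system, stood at 142, 152 and 169 against 17.6, 21.7 and 56.9 (-2.42, standard error 0.43, limma adjusted p = 0.185, and 0.0106 without Control 1). Cd209f stood at 100.2, 165 and 213 against 6.87, 49.9 and 78.2 (-2.27, standard error 0.79, limma adjusted p = 0.252). Without FF-10101 1 the differences were -1.78 for Cd209g and -1.27 for Cd209f, and without Control 1 Cd209g had an adjusted p of 0.0396 in limma. The Cd209 genes lie in a cluster of related copies, and how reads were divided among them is uncertain. Siglec1, the sialic acid receptor CD169, had a log2 fold change of -1.60, the lectin gene Mgl2 -1.33, the platelet factor 4 gene Pf4 -1.26 and the transcription factor gene Maf -0.59. Of these, Siglec1 (limma adjusted p = 0.0354), Mgl2 (0.0146) and Pf4 (0.0435) were called without Control 1. Ccl24 and Igf1 went the other way, at 1.68 (1.01 without Control 3) and 0.38 (0.24 without FF-10101 3), with groups that overlapped. Vsig4, another marker of resident macrophages, had 5, 2 and 5 reads in the controls and 1, 0 and 0 in the FF-10101 tumors and was not tested.

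**Figure D5:**
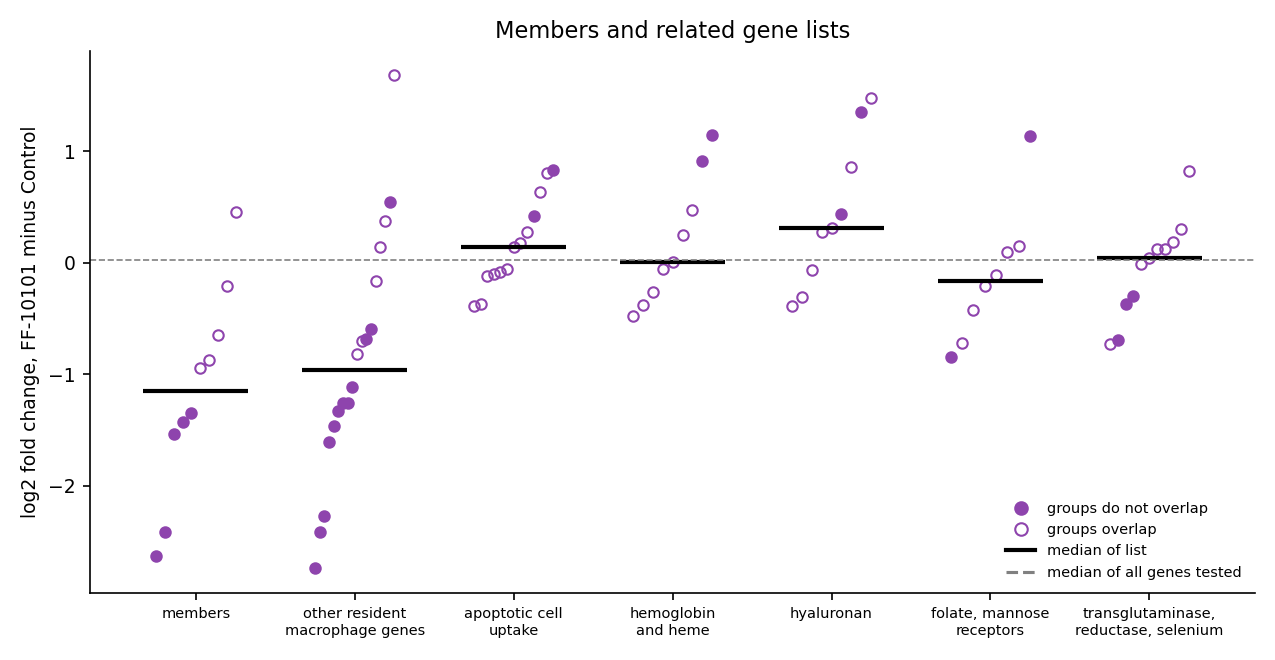
Log2 fold change, FF-10101 minus Control, of the 10 members and of the tested genes in 6 related lists (filled, groups do not overlap; open, groups overlap; bar, median; dashed line, median of all genes tested). The median was -0.96 for other resident macrophage genes and -0.16 to 0.31 for the 5 partner lists.

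The partners of the members were then read by function. For the uptake of apoptotic cells, 13 of 16 genes were tested, with a median log2 fold change of 0.14 (-0.03 without FF-10101 2), none without overlap in the lower direction and 2 in the higher direction. The GAS6 receptors had differences of -0.10 (Axl, limma adjusted p = 0.753), 0.14 (Mertk, 0.842) and -0.12 (Tyro3, 0.909). Mertk ranged from -0.04 without Control 3 to 0.46 without FF-10101 1. Axl was the most abundant of the 3 by count, at 4150, 4922 and 4498 normalized counts in the controls and 3758, 4437 and 4443 in the FF-10101 tumors, so the groups overlapped. Tyro3 had a log2 fold change of -0.68 with an adjusted p of 0.0403 in limma without Control 1, but 0.06 without Control 2 and 0.26 without Control 3. Pros1, the other bridging ligand of these receptors, was higher in every FF-10101 tumor (1243, 1032 and 1189) than in any control (951, 613 and 461), with a log2 fold change of 0.83, a standard error of 0.26 and a limma adjusted p of 0.233 (0.00476 without Control 1). The engulfment adaptor gene Gulp1 did not overlap either (0.42, limma adjusted p = 0.292). Havcr2, which encodes the TIMD4 relative TIM-3, had 0.64 (limma adjusted p = 0.558), which was 1.24 with an adjusted p of 0.0271 without Control 1 and 0.33 without Control 3. Havcr1, the TIM-1 gene, had 12, 7 and 4 reads in the controls and 5, 0 and 1 in the FF-10101 tumors and was not tested. Stab2, the closest relative of Stab1, had 1 to 8 reads per tumor and was not tested.

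For hemoglobin and heme handling, the pathway that CD163 feeds, 9 of 12 genes were tested with a median of 0.01 (0.54 without Control 1, -0.27 without Control 3), none without overlap in the lower direction and 2 in the higher direction. These were the haptoglobin gene Hp (1.14, limma adjusted p = 0.25, and 0.66 without Control 2) and the iron exporter gene Slc40a1, which stood at 49.5, 57.6 and 63.2 normalized counts in the controls and at 87.8, 141 and 99.6 in the FF-10101 tumors (0.91, standard error 0.27, limma adjusted p = 0.229). Hmox1, the heme oxygenase gene, had 0.47 (limma adjusted p = 0.666, 1.05 without Control 1 and 0.10 without FF-10101 3) and was high in Control 1 (3362) and FF-10101 3 (3510) against 959.5 to 1836 in the other tumors.

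For hyaluronan, the ligand of LYVE1, 9 of 12 genes were tested with a median of 0.31 (0.54 without Control 2), none without overlap in the lower direction and 2 in the higher direction. Tnfaip6, a hyaluronan-binding protein gene, stood at 59.7, 29.3 and 44.4 in the controls and at 128, 106 and 98.7 in the FF-10101 tumors (1.35, standard error 0.31, limma adjusted p = 0.229, and 0.00777 without Control 1). Cemip2, a hyaluronidase gene, was the other (0.44, limma adjusted p = 0.273). The general hyaluronan receptor gene Cd44 had -0.06 (limma adjusted p = 0.839).

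For folate and mannose receptors, 8 of 9 genes were tested with a median of -0.16 (-0.28 without FF-10101 2). The proton-coupled folate transporter gene Slc46a1 was lower in every FF-10101 tumor (29.0, 42.3 and 44.4 normalized counts) than in any control (67.5, 64.1 and 75.4), with a log2 fold change of -0.84, a standard error of 0.28 and a limma adjusted p of 0.245. Pla2r1, a member of the mannose receptor family, was higher (1.13, limma adjusted p = 0.229), and Mrc2, the closest relative of Mrc1, had 0.15 (limma adjusted p = 0.777, and -0.08 without FF-10101 1). Folr1 had 0 to 4 reads per tumor and was not tested.

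For the transglutaminase, carbonyl reductase and selenium genes, 11 of 13 were tested with a median of 0.04 (-0.11 without Control 2), and 3 did not overlap in the lower direction. These were the selenoprotein gene Gpx4 (-0.69, limma adjusted p = 0.257), the selenophosphate synthetase gene Sephs2 (-0.37, limma adjusted p = 0.309) and the carbonyl reductase gene Cbr3 (-0.30, limma adjusted p = 0.456, and -0.16 without Control 3). Lrp8, a receptor of SELENOP, had -0.73 (limma adjusted p = 0.51). Without Control 1, Lrp8 had -1.37 with an adjusted p of 0.0108 and Gpx4 had -0.93 with an adjusted p of 0.0104 in limma, whereas Lrp8 had -0.33 without Control 2 and Gpx4 -0.46 without Control 3. Over all 6 lists, none of 68 tested genes of 81 had an adjusted p under 0.05 in limma, 26 had an unadjusted p under 0.05 (15 lower, 11 higher), limma-voom called none, and 23 were called without Control 1.

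Markers of other cells moved beside the members. All 10 blood endothelial markers had higher means in FF-10101 (median 1.11), with a summed level of 2920 and 2406 in Control 2 and 3 and 7193 to 7754 in Control 1 and the FF-10101 tumors. All 10 fibroblast markers, genes that a fibrosarcoma line can also express, were also higher (median 0.88, 5 without overlap), and 9 of 10 monocyte markers were higher (median 1.07, 3 without overlap). None of the tested genes in the marker lists had an adjusted p under 0.05 in limma with all 6 tumors. Without Control 1, all 10 blood endothelial, 7 of 10 fibroblast and 6 of 10 monocyte markers had an adjusted p under 0.05 and were higher. As normalized counts are relative within a tumor, the part of these other cells in the members' lower levels was not tested.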

How the data were processed

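The 10 genes and the gene lists were chosen with earlier results of these data known. Whole-tumor libraries (NEBNext Ultra II RNA kit) were sequenced on a NovaSeq6000. Per the labels, the authors used fastp 0.19.5, Salmon 1.5.1 and DESeq2 1.22.1, and they deposited 1 table of log2 values on a variance-stabilized scale, per the values (4.43 to 16.91). The transformation was inverted to normalized counts, and all 325854 values then gave whole reads within 0.001 reads. Genes whose mean reached 10 normalized counts were tested by limma 3.58.1 in R 4.3.3 (empirical Bayes with trend, group as the sole term, pseudocount 1, two-sided, Benjamini-Hochberg adjusted p under 0.05), where the authors had used DESeq2. Fold changes are on that log2 scale and understate the change of low genes. The procedure was tested on simulated data.

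Genes named were all members, direct partners of members and the 5 most alike in pattern. In each related list they were those with an adjusted p under 0.05 and the 3 largest differences without overlap. Of the marker lists, the first markers were named for pan-macrophage and lymphatic endothelium only. Other genes were named after their values were seen. The lists were 6 of related genes and 12 of markers (pan-macrophage, monocyte, neutrophil, dendritic cell, mast cell, blood and lymphatic endothelium, fibroblast, adipocyte, skeletal muscle, keratinocyte and T cell). Alternatives changed the pseudocount, minimum, scaling, test, marker summary and replicate block and left out each tumor. Exon lengths and overlaps were from GENCODE vM21. Whether counting used strand is not given in the sources used here: on the opposite strand, exons of Gm10602 overlap 63.1% of Folr2 exon bases (at most 8.87 normalized counts), those of Ccdc152 15.4% of Selenop (3.33 to 29.3) and those of Nt5dc2 1.09% of Stab1 (457 to 1103).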

Additional observations from a re-analysis of the deposited data

How the results depend on the processing

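The members' log2 fold changes stayed within 1 pooled within-group SD of the values given in all 139 alternative estimates. With 3 tumors per group, leaving out 1 cannot move a difference by that much, so for those estimates the outcome was fixed in advance. Cd163 stayed within it although its estimates ran from -2.06 to -0.25. The sign changed in 3 of the 139: Lyve1 without Control 1 and without FF-10101 1, and Timd4 without Control 2. The number of genes called of all tested was 6, and it was 17 with no minimum, 3 with a mean of at least 50, 1 with the replicate block, and from 1 to 3051 when 1 tumor was left out, the highest without Control 1. The members without overlap between groups numbered 5, and from 5 to 8 when 1 tumor was left out, the highest without FF-10101 3. Related genes called numbered 0, and from 0 to 23 when 1 tumor was left out, the highest without Control 1. The cause was not tested. The median of the members relative to the pan-macrophage markers ran from -0.97 to -0.40 over the alternatives, against -0.68. The labels do not describe the replicate numbers as a pairing of the tumors. Same-numbered tumors had deviations from their group mean correlated at -0.29, -0.04 and -0.28. With 3 tumors per group, such correlations cannot decide whether these tumors shared a batch. The replicate block could not be applied to the count of members without overlap. Timd4 had 3 to 22 reads per tumor and was not tested at a mean of at least 50.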

Other observations

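Marker lists not described above gave these values. Of the 7 tested neutrophil markers, 6 had higher means in FF-10101 (median log2 difference 1.61, 4 without overlap, lowest limma adjusted p = 0.0813), and all 5 tested mast cell markers were higher (median 1.79, 1.19 without FF-10101 3, 4 without overlap). Without Control 1, 5 neutrophil and 5 mast cell markers had an adjusted p under 0.05 in limma, all higher, as did 3 dendritic cell and 3 T cell markers. The 8 dendritic cell markers were divided 4 against 4 (median 0.01, and -0.31 without FF-10101 3). The T cell list had a median of 0.35 (0.84 without Control 1, 0.15 without FF-10101 3), skeletal muscle 0.46 (0.90 without FF-10101 1, 0.01 without FF-10101 2), the 5 tested adipocyte markers 0.48 (1.05 without FF-10101 1, 0.00 without FF-10101 3) and the 4 tested keratinocyte markers 1.07, with no gene of these lists free of overlap. The keratinocyte median was -1.13 without FF-10101 1 and 2.50 without FF-10101 3.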
